A study of Mus musculus with 43 samples.

Results

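The comparison described here set 3 small RNA libraries of WT corpus epididymis tissue against 3 libraries of WT caput epididymis tissue, for all RNA classes of the tissue count table. These 6 libraries, chosen by their titles, were part of 17 tissue libraries and of 43 libraries in the whole series. The study compared WT FVB mice with KO mice lacking Rnase9, Rnase10, Rnase11 and Rnase12, in epididymis tissue, luminal fluid and sperm, at an age of 8 to 12 weeks. Both WT groups were untreated tissue of these mice, with all Rnase9-12 genes intact, and the number of animals behind each tissue library was not given in the sources used here. The same contrast in KO mice (2 corpus and 3 caput libraries, without a corpus replicate 3) and 3 WT cauda libraries are given only where they bear on a result. In the KO, the deletion is present in every cell of the animal.

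The epididymis is a coiled duct in which sperm mature. Sperm enter at the caput, pass through the corpus and are stored in the cauda, and each segment has its own pattern of gene expression along the duct. Small RNAs are of several kinds: miRNAs are processed from hairpins and repress target mRNAs through a seed near their 5′ end, tRNA fragments (tRFs) and rRNA-derived small RNAs (rsRNAs) are cut from tRNAs and rRNAs, and snoRNAs guide the modification of rRNA. ARM-seq, the protocol used for tissue, treats RNA so that tRNA fragments with modified bases can be read, and the small fraction it sequences also holds pieces of longer RNAs.

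The mature sequences of some called miRNAs are shown beside those of relatives that were not called. Hairpins with the same or nearly the same mature RNA were called together for miR-196, whereas Mir146b and Mir99a were called and hairpins with their seeds (miR-146a, miR-99b and miR-100) were not. Capitals mark the seed, bases 2 to 8, and the sequences are those of RefSeq for GRCm38.p6. The first 2 lines share the seed AGGUAGU, the next 2 GAGAACU and the following 3 ACCCGUA.
miR-196a-5p: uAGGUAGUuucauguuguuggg
miR-196b-5p: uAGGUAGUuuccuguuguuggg
miR-146b-5p: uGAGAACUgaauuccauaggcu
miR-146a-5p: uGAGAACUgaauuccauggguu
miR-99a-5p: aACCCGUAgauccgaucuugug
miR-99b-5p: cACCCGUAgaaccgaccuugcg
miR-100-5p: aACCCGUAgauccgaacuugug
miR-10a-5p: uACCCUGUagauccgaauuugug
miR-10b-5p: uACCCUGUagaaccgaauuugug
miR-672-5p: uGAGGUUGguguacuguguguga

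The summed counts of the 6 libraries ran from 44999325 to 249732714, with WT caput replicate 3 the deepest and WT corpus replicate 2 the shallowest. Reads with several equally good matches were entered at each matching entry, so these sums are not numbers of reads. One label of WT caput replicate 3 names the cauda while its title and description name the caput. Over log2 CPM (counts divided by library size and scaled to a common total), its Pearson correlation averaged 0.973 with the other WT caput libraries, 0.983 with KO caput, 0.954 with WT corpus and 0.919 with WT cauda, and it was kept as caput. WT corpus replicate 3 had its highest correlation, 0.979, with WT cauda replicate 3. The table holds no mRNAs, so segment marker genes could not be checked. The 5 epithelial hairpins (Mir200a, Mir200b, Mir200c, Mir141 and Mir429) were counted in all 6 libraries, with summed counts between 621 and 6229 in caput and between 912 and 4401 in corpus.

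Of 4890 RNAs listed, 3488 passed the filter on low counts, and 412 of them differed between WT corpus and WT caput tissue. In the corpus 314 RNAs were higher (9.0% of those tested) and 98 were lower (2.81%). An RNA was called when the adjusted p (quasi-likelihood test of edgeR, Benjamini-Hochberg method) was under 0.05 and the log2 fold change was above 1 in size. Among the higher RNAs were 188 genic piRNA entries (81% of those tested) and 57 repeats of 28S rRNA (34.5%), and also 25 miRNA entries, which at 10.8% were near the share over all RNAs. Among the lower RNAs were 65 snoRNAs (14.2%) and 29 tRFs of the type tRF_other (13.8%), which start and end inside the tRNA. Over all RNAs tested the median log2 fold change was 0.08. These are bulk tissues, in which fewer cells of a type and less RNA per cell cannot be told apart.

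**Figure D1:**
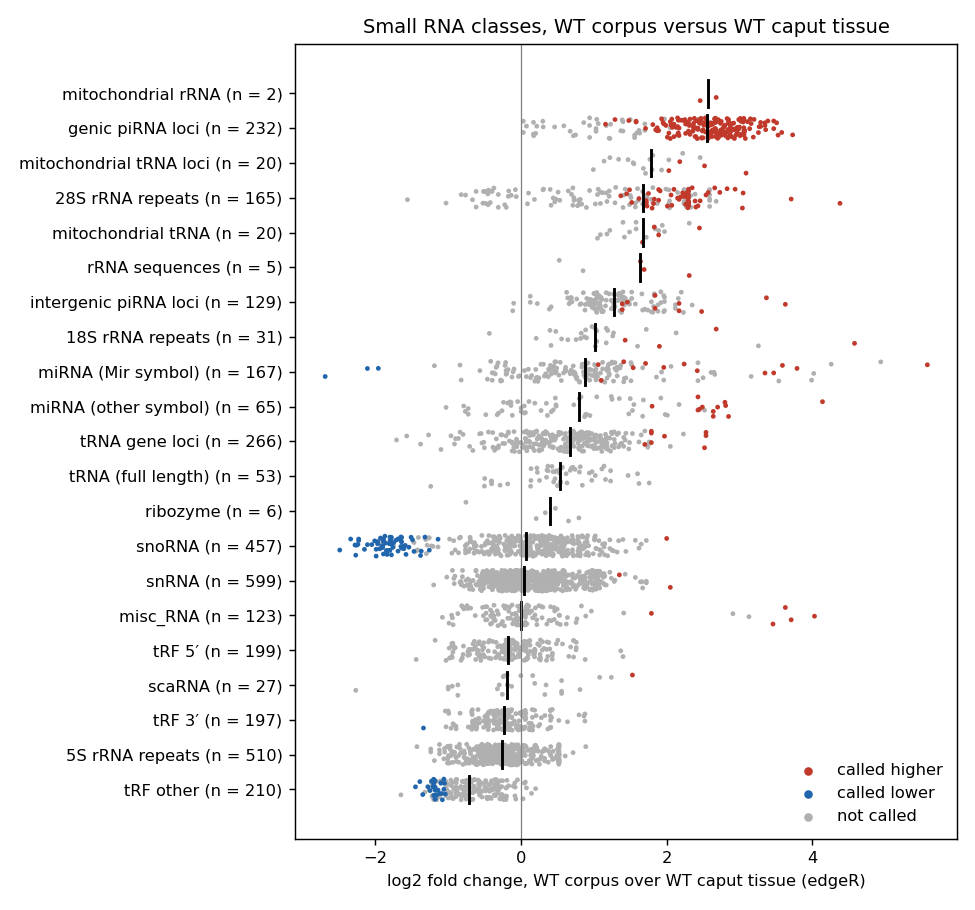
Log2 fold change (WT corpus over WT caput tissue, 3 libraries each, edgeR) of each tested RNA by class, with the class median as a black bar and called RNAs in colour. Genic piRNA entries lie to the right with a median of 2.55, tRF_other to the left with a median of -0.71, and the lower snoRNAs form a separate cloud.

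The class plot shows these shifts beside the many 5S rRNA repeats, snRNAs and tRF ends with medians near 0. Exact 2-sided permutation tests on the shares of counts gave p = 0.1 at best, the smallest p that 3 against 3 libraries allow, and 0.263 after adjustment over 21 classes. The counts depended on single libraries. The lower calls numbered 26 without WT caput replicate 1, 34 without WT corpus replicate 1 and 61 without WT caput replicate 2, against 98 with all libraries. No called RNA changed sign when any 1 library was left out. In a fit with the replicate number as a block, 550 RNAs were higher and 131 lower. With TMM scaling factors taken without tRFs, tRNAs and rsRNAs, 242 were higher and 238 lower. The share of calls that were higher was then 50.4%, against 76.2% above, and the median of all RNAs was -0.33.

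Hairpins of the miR-196 family were higher in the corpus. They lie within the clusters of Hox genes, which encode transcription factors that set position along the body axis. Mir196b (chr6:52230081-52230165, minus strand, GRCm38) overlaps an exon of a Hoxa9 transcript and lies 1032 bp from Hoxa10. It had 1, 0 and 6 counts in the 3 WT caput libraries and 12, 37 and 170 in the WT corpus libraries. These were 0.00934, 0 and 0.0167 CPM in caput against 0.215, 0.859 and 0.753 CPM in corpus. Every corpus library was above every caput library, and the log2 fold change was 5.58 ± 0.684 (SE, n = 3 each, adjusted p = 0.00134, edgeR).

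Mir196a-1 and Mir196a-2 give the same mature miR-196a from separate loci. Mir196a-1 (chr11:96265164-96265265, plus strand) lies 6192 bp from Hoxb9, and Mir196a-2 (chr15:102973350-102973434, plus strand) lies in an intron of Hoxc5 and 1457 bp from Hoxc10. Mir196a-2 was at 0.00934, 0.0122 and 0.0278 CPM in caput and at 0.179, 0.534 and 0.195 CPM in corpus, a log2 fold change of 3.79 ± 0.657 (adjusted p = 0.00207, edgeR). Mir196a-1 was at 0.028, 0.0122 and 0.0222 CPM in caput and at 0.108, 0.464 and 0.208 CPM in corpus, a log2 fold change of 3.47 ± 0.635 (adjusted p = 0.00207, edgeR). Reads of the shared mature miR-196a match both loci, so the 2 hairpins are not independent measurements. All 3 hairpins were low in each caput library, with at most 10 counts. Mir196b and Mir196a-2 were called higher under all 16 alternatives and Mir196a-1 under the 15 in which it was tested, from 2.90 to 6.51 on the log2 scale.

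The KO libraries gave the same direction. Mir196b was at 0.0173, 0.0216 and 0.0127 CPM in KO caput and at 0.259 and 0.509 CPM in KO corpus, with a log2 fold change of 4.51 (adjusted p = 0.0106, edgeR). Mir196a-2 had no count in any KO caput library and was at 0.191 and 0.21 CPM in KO corpus. In WT cauda, Mir196b was at 0.664, 0.382 and 1.22 CPM, within or above the range of the corpus libraries. Mir196a-2 was at 0.133, 0.0763 and 0.165 CPM there, below each corpus library, and Mir196a-1 at 0.133, 0.0763 and 0.152 CPM.

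Mir10a and Mir10b, the other Hox cluster hairpins tested, were not called. Mir10a lies 993 bp from Hoxb4 and was at 46.7, 15.1 and 35.6 CPM in caput and 35.1, 42.0 and 30.7 CPM in corpus. Its log2 fold change was 0.15 (adjusted p = 0.849, edgeR) and turned negative under other scalings. Mir10b, within Hoxd3, was at 41.7, 16.6 and 34.1 CPM in caput and 27.7, 30.6 and 23.5 CPM in corpus (log2 fold change -0.18), and turned positive without WT caput replicate 1. The libraries of both segments overlapped for both hairpins, with WT caput replicate 2 the lowest. Of the 5 Hox cluster hairpins tested, 3 were thus higher and 0 lower, against 9.0% and 2.81% of all RNAs. These 3 are the miR-196 hairpins, of which Mir196a-1 and Mir196a-2 share reads. The list median of 3.47 is the value of Mir196a-1, so the list adds nothing to the miR-196 result.

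**Figure D2:**
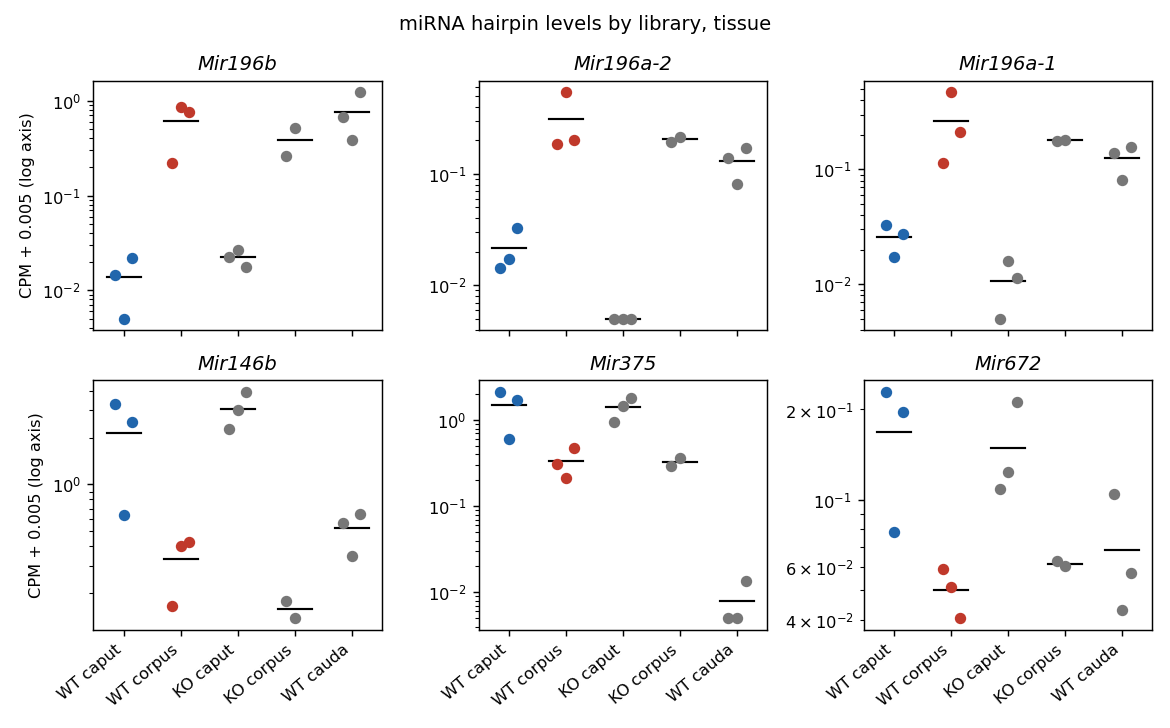
Levels of 6 miRNA hairpins in single tissue libraries, in CPM plus 0.005 on a log axis, with the group mean as a bar (3 libraries a group, 2 for KO corpus). The 3 miR-196 hairpins were low in each caput library and higher in corpus, and Mir146b, Mir375 and Mir672 were higher in caput.

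There were 3 hairpins lower in the corpus, as the level plot shows. Mir146b, whose miRNA is known from NF-κB signalling and inflammation, lies in an intron of Mfsd13a (chr19:46342762-46342870, plus strand). It was at 3.27, 0.634 and 2.53 CPM in caput and at 0.161, 0.395 and 0.421 CPM in corpus, a log2 fold change of -2.69 ± 0.527 (adjusted p = 0.0032, edgeR). WT caput replicate 2 was the lowest caput library but was still above each corpus library. The call held under all 16 alternatives, between -3.12 and -2.27. In the KO it was at 2.26, 3.0 and 3.93 CPM in caput and at 0.172 and 0.133 CPM in corpus (log2 fold change -4.33, adjusted p = 0.0106, edgeR). WT cauda libraries held 0.564, 0.344 and 0.643 CPM. The hairpin of miR-146a, which has the same seed, was at 0.14, 0.0122 and 0.0472 CPM in caput and 0.0179, 0.139 and 0.111 CPM in corpus, and it was not called (log2 fold change 0.48, adjusted p = 0.721, edgeR).

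Mir375 (chr1:74900658-74900721, minus strand), a hairpin known from endocrine and other secretory epithelia, was at 2.13, 0.597 and 1.70 CPM in caput and at 0.305, 0.209 and 0.469 CPM in corpus. Its log2 fold change was -2.11 ± 0.483 (adjusted p = 0.00769, edgeR), and the call was lost in a fit of the 6 WT libraries alone. In WT cauda it had 0, 0 and 2 counts, so that the 3 segments ranked caput, corpus, cauda. The RefSeq table holds 1 arm of it, so the hairpin counted here is shown whole.
Mir375: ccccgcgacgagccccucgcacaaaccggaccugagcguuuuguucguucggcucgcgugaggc
Mir672 (chrX:104116175-104116274, minus strand, in an intron of Nexmif) was at 0.224, 0.0731 and 0.191 CPM in caput and at 0.0538, 0.0464 and 0.0354 CPM in corpus (log2 fold change -1.96 ± 0.538, adjusted p = 0.0234, edgeR). Its call was lost without WT caput replicate 1 or 3 and without WT corpus replicate 1 or 3. For all 3 hairpins every corpus library was below every caput library.

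Across the miRNAs, most hairpins leaned towards the corpus without passing the test. Of 167 hairpins with a Mir symbol, 137 had a positive log2 fold change, 13 were called higher (7.78%, against 9.0% of all RNAs) and 3 lower, and the median was 0.88 against 0.08 over all RNAs. All miRNA entries together made up 0.143% of counts in caput and 0.125% in corpus, with overlapping libraries. TMM factors were 1.29, 1.46 and 1.44 in caput and 0.823, 0.957 and 1.39 in corpus. The median of hairpins with a Mir symbol depended on the scaling. It was 0.48 with factors taken without tRFs, tRNAs and rsRNAs and 0.38 when miRNA hairpins were fitted alone. With the replicate number as a block, 50 were called higher and 4 lower. In KO mice the median was -0.40. The difference between the genotypes was called for 0 hairpins by edgeR, with 36 at an unadjusted p under 0.05, of which 35 were lower in the KO contrast. KO corpus had replicates 1 and 2 and KO caput replicates 1 to 3, so genotype and replicate make-up cannot be told apart here.

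Of the miR-99 and miR-100 hairpins, which share a seed, only Mir99a was called. It was at 2.74, 1.39 and 1.59 CPM in caput and at 2.80, 7.80 and 4.67 CPM in corpus (log2 fold change 1.41 ± 0.383, adjusted p = 0.0209, edgeR). Mir99b was at 1.93, 0.951 and 1.58 CPM in caput and at 0.681, 0.720 and 0.576 CPM in corpus (log2 fold change -1.19 ± 0.391, adjusted p = 0.0597, edgeR), with every corpus library below every caput library but no call. Mir100 did not separate (log2 fold change 0.38, adjusted p = 0.59, edgeR). Of the 6 hairpins of the miR-99, miR-100 and miR-125 list, 1 was higher and 0 lower. The Mir99a call was lost in 8 of 16 alternatives, and Mir99b was called lower in 8.

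Other families were read by their counts. In the miR-30 family all 6 hairpins tested were positive (median log2 fold change 1.21) and 0 were called in edgeR. Mir30a was at 4.71, 1.32 and 2.43 CPM in caput and 5.23, 8.80 and 6.72 CPM in corpus (log2 fold change 1.29, adjusted p = 0.0622, edgeR). In the miR-23, miR-27 and miR-24 list all 6 were positive (median 1.03) and 1 was called, Mir23a, at 0.0934, 0.122 and 0.203 CPM in caput against 0.412, 0.627 and 0.412 CPM in corpus (log2 fold change 1.71, adjusted p = 0.0286, edgeR). That call was lost in 8 of 16 alternatives, among them the fits without WT caput replicate 1 or 2 and without WT corpus replicate 1 or 2. In the Dlk1-Dio3 imprinted cluster all 6 were positive (median 1.14) and Mir127 was called (log2 fold change 1.06, adjusted p = 0.0488, edgeR). The Mir127 call was lost in 12 of 16 alternatives. KO medians were -0.791 for miR-30, -0.514 for the miR-23, miR-27 and miR-24 list and 0.541 for Dlk1-Dio3.

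No call was made among 12 let-7 hairpins (median 0.41, 8 positive), 5 hairpins of the miR-200 family (0.47), 7 of the miR-17 clusters (0.58, all positive), 3 of the miR-183 cluster (0.07), 5 of miR-181 (-0.04), 3 of miR-26 (0.90) or 3 of miR-148 and miR-152 (0.97). The same held for 2 hairpins of miR-15 and miR-16 (0.95), and for the single tested hairpins of miR-29 (0.94), miR-204 and miR-211 (-0.27), and miR-34 and miR-449 (-0.40). Mir107, within an intron of Pank1, was chosen after its values were seen. It rose from 0.084, 0.0488 and 0.0888 CPM in caput to 0.179, 0.464 and 0.443 CPM in corpus (log2 fold change 2.24, adjusted p = 0.00812, edgeR).

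Mir143 and Mir145a, hairpins of smooth muscle, were read as a marker of the muscle layer around the duct. Mir143 was at 37.4, 19.0 and 22.5 CPM in caput and at 41.5, 80 and 47.5 CPM in corpus (log2 fold change 1.10 ± 0.347, adjusted p = 0.0492, edgeR), a call lost in 13 of 16 alternatives, and in WT cauda it was at 206, 102 and 148 CPM. The 2 hairpins together ran from 20.6 to 40.3 CPM in caput and from 44.2 to 87.5 CPM in corpus, without overlap. The endothelial Mir126a ran from 0.378 to 1.9 CPM in caput and from 1.16 to 2.28 CPM in corpus, and the tested blood hairpin Mir142 from 0.0122 to 0.0472 and from 0.0538 to 0.116 CPM. Of the 4 blood and immune hairpins in the table, Mir451a had 1 to 5 counts a library and Mir223 had 0 to 5. Striated muscle hairpins summed to between 0.731 and 1.9 CPM in caput and between 1.59 and 3.58 CPM in corpus. The 2 tested germ cell hairpins, of 10 in the table, summed to between 0.061 and 0.373 CPM in caput and between 0.163 and 0.283 CPM in corpus. Liver Mir122 had 0 to 4 counts, and the neuronal list had 0 to 86 counts in caput and 0 to 27 in corpus. The 2 smooth muscle hairpins had a median log2 fold change of 0.951 in WT but -0.365 in the KO contrast. KO medians were also negative for the tested endothelial (-0.677), blood (-0.345), striated muscle (-0.32) and epithelial (-0.983) hairpins. For the germ cell hairpins the KO median was 1.07. As above, genotype and replicate make-up cannot be told apart. The part of these cell types in the results was not tested.

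Of the 25 miRNA entries called higher, 12 carried no Mir symbol, and 11 of these lie in an exon of another gene on the same strand. Gm27597, Gm27907, Gm27529 and Gm27288 lie in exons of the ribosomal protein gene Rpl19 and of its pseudogenes and have an identical sequence of 80 bases, so they share reads and count as a single measurement. Gm27597 was at 0.00934, 0.0488 and 0.0305 CPM in caput and at 0.341, 0.163 and 0.146 CPM in corpus (log2 fold change 2.81, adjusted p = 0.00204, edgeR). Gm47302 lies in an exon of Col3a1, which encodes a fibrillar collagen of connective tissue, and was chosen after its values were seen. It was at 0.616, 0.549 and 0.524 CPM in caput and at 3.39, 2.09 and 3.58 CPM in corpus (log2 fold change 2.43, adjusted p = 0.0036, edgeR). Other entries lie in exons of Ftl1, Actg1, Eef1a1 and Ddx5. Of the 65 tested miRNA entries without a Mir symbol, 40 lie in exons of other genes and had a median of 1.29. The other 25 had a median of 0.04. Hairpins with a Mir symbol did not show this split. Of these, 59 in exons had a median of 0.77 with 4 called higher. The 107 not in an exon had a median of 0.94 with 9 called higher. Mir8094 (log2 fold change 3.59) and Mir3064 (3.35), also named after their values were seen, lie in exons of Ddx39b and Ddx5. Whether the reads on these entries came from hairpins or from the longer transcripts was not tested.

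In the misc_RNA class 5 of 123 entries were higher (4.07%, below the 9.0% of all RNAs), and the class median was -0.00. Of these 5, 4 are conserved stretches of the nuclear long noncoding RNAs Malat1 and Neat1. Gm27694, in Malat1, was at 0.028, 0.122 and 0.0278 CPM in caput and at 1.42, 0.395 and 0.270 CPM in corpus (log2 fold change 3.71, adjusted p = 0.00774, edgeR). Gm27505, in Neat1, had a log2 fold change of 3.46 (adjusted p = 0.00953, edgeR). The class count was 1 without WT corpus replicate 1, 2 without WT caput replicate 1 and 3 without WT corpus replicate 3. Both calls were lost without WT corpus replicate 1, that of Gm27694 also without WT caput replicate 1 and that of Gm27505 without WT caput replicate 3.

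Genic piRNA entries were the class with most calls. These entries are stretches of genes that the mouse piRNA set lists as sources of piRNAs, the small RNAs that silence transposons in germ cells, and a count there is any small RNA read of that stretch. All 232 entries tested had a positive log2 fold change, 188 were called higher, and the median was 2.55 against 0.08 over all RNAs. In 194 of them every corpus library was above every caput library, against 14.1% of all RNAs tested. The entries come from 110 genes, of which 90 had a called entry and 83 had all their entries called, so entries of the same gene are not independent. The count fell to 123 without WT corpus replicate 1 and to 110 of 182 entries when the 6 WT libraries were fitted alone. In the KO contrast the median was 1.10 and 211 entries were positive, and the difference between genotypes had an unadjusted p under 0.05 for 66 entries, all lower in the KO, with 0 called by edgeR. As for the miRNAs, genotype and the lack of a KO corpus replicate 3 cannot be told apart here.

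In CPM scaled by TMM, WT corpus replicate 1 stood above the other corpus libraries in the named entries. As an unscaled share of counts, genic piRNA entries made up 0.0414%, 0.0153% and 0.0304% in the 3 corpus libraries. In the caput libraries this share was 0.008%, 0.00985% and 0.00911%. pi-Arhgap20.1 was at 0.299, 0.439 and 0.258 CPM in caput and at 6.11, 2.79 and 2.91 CPM in corpus (log2 fold change 3.58 ± 0.543, adjusted p = 0.00174, edgeR). pi-Tef.3 was at 0.103, 0.0975 and 0.119 CPM in caput and at 1.70, 0.418 and 0.788 CPM in corpus (log2 fold change 3.15). pi-Lpp.1, in the gene of a focal adhesion protein and chosen after its values were seen, was at 1.24, 1.94 and 1.41 CPM in caput and at 20.3, 5.50 and 7.0 CPM in corpus (log2 fold change 2.84). Even the lowest corpus library was above each caput library in all 3. Among 129 intergenic entries, 127 were positive and 10 were called higher (7.75%, below the 9.0% of all RNAs), with a median of 1.27. The count was 2 without WT corpus replicate 1, 3 without WT caput replicate 3, 4 without WT caput replicate 2 and 34 without WT corpus replicate 2, and 59 with the replicate block. The entry 7-qD2-40.1 was at 0.103, 0.195 and 0.117 CPM in caput and at 2.85, 0.789 and 1.41 CPM in corpus (log2 fold change 3.63), and 2-qE5-4.1 had a log2 fold change of 3.37.

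Cytoplasmic and mitochondrial rRNA fragments were higher in the corpus. The reference sequence of 18S rRNA was at 1760, 1860 and 2330 CPM in caput and at 18000, 6620 and 4810 CPM in corpus (log2 fold change 2.31 ± 0.489, adjusted p = 0.00499, edgeR). The first 28S rRNA sequence was at 3070, 3390 and 5220 CPM in caput and at 16000, 12500 and 7860 CPM in corpus (log2 fold change 1.64 ± 0.429, adjusted p = 0.0174, edgeR), and the second, with nearly the same counts, had a log2 fold change of 1.69. Both 28S calls were lost without WT caput replicate 1, WT caput replicate 2 or WT corpus replicate 1, and with scaling from other RNAs. The 5S sequence (log2 fold change 0.53, adjusted p = 0.523, edgeR) and the 5.8S sequence (0.85) were not called.

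The mitochondrial rRNAs rose in step. The small subunit rRNA was at 29.0, 38.5 and 35.7 CPM in caput and at 246, 318 and 97.4 CPM in corpus (log2 fold change 2.68 ± 0.479, adjusted p = 0.00204, edgeR). The large subunit rRNA was at 98.9, 118 and 154 CPM in caput and at 824, 861 and 348 CPM in corpus (log2 fold change 2.46 ± 0.461, adjusted p = 0.00232, edgeR). Both calls held under the 15 alternatives in which they were tested, from 1.93 to 2.99 on the log2 scale. WT corpus replicate 3, the deepest corpus library, was the lowest of the 3 for both rRNAs and for 18S and 28S rRNA in CPM scaled by TMM. By unscaled shares of counts it was the lowest for mitochondrial rRNA (0.088%, 0.113% and 0.062% in the 3 corpus libraries). It was not the lowest for 18S rRNA (1.56%, 0.741% and 0.841%) or 28S rRNA (3.88%, 3.83% and 3.98%).

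**Figure D3:**
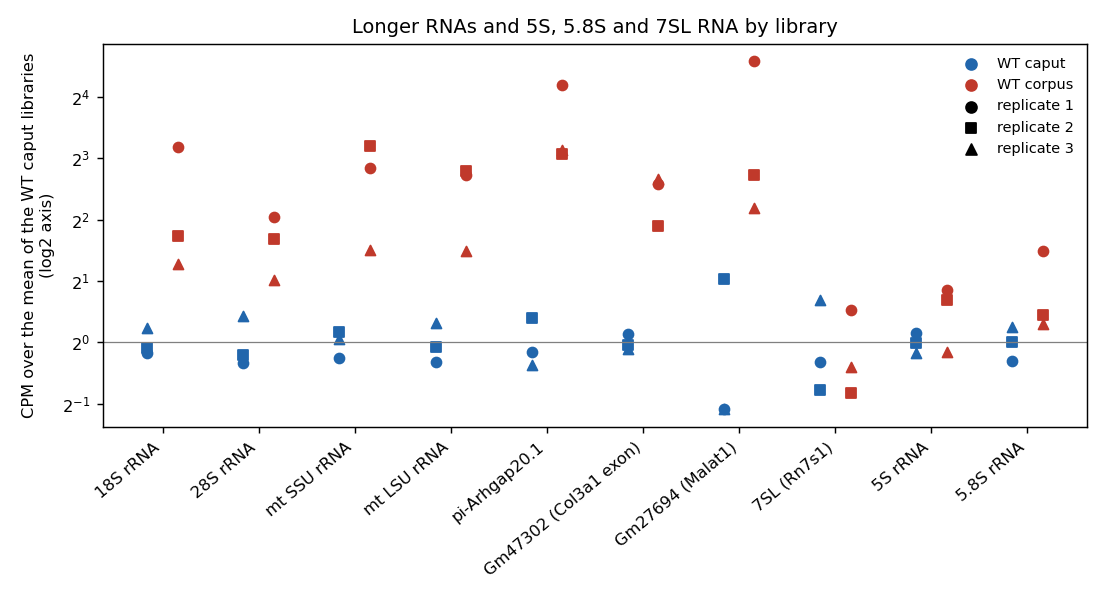
Levels of fragments of longer RNAs and of 5S, 5.8S and 7SL RNA in the 6 WT libraries, as CPM over the mean of the WT caput libraries on a log2 axis, with a symbol for each replicate number. For the first 7 RNAs every corpus library lies above every caput library, whereas the libraries of 7SL and 5S RNA overlap.

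In the plot of longer RNAs, WT corpus replicate 1 was the highest library for 18S rRNA, 28S rRNA, pi-Arhgap20.1 and Gm27694, but not for the mitochondrial rRNAs or Gm47302. As a share of all counts, 18S rRNA entries made up 0.332% ± 0.0877 (SD, n = 3) in caput and 1.05% ± 0.446 in corpus. Mitochondrial rRNA made up 0.0222% ± 0.00546 in caput and 0.0876% ± 0.0254 in corpus. Each of these shares was higher in every corpus library (exact permutation p = 0.1, the smallest possible). Entries of 5S rRNA made up 81.4% of counts in caput and 79.3% in corpus. A read counts at each entry it matches, so shares of counts are not abundances of reads. Of 165 repeats of 28S rRNA 57 were called higher and 0 lower, with a median of 1.67. In 92 of them every corpus library was above every caput library, against 14.1% of all RNAs tested. The call count was 35 without WT caput replicate 1 and 36 without WT corpus replicate 2. Repeats share reads, and 12 of those called had counts within 20% of each other in each WT library, so the calls are not independent. The repeat rmsk_28S_211 was at 51.2, 68.9 and 88.6 CPM in caput and at 360, 409 and 252 CPM in corpus, and rmsk_28S_390 at 7.18, 13.8 and 8.27 CPM in caput and 46.4, 61.2 and 45.4 CPM in corpus. Of 31 repeats of 18S rRNA 4 were higher (12.9%, near the 9.0% of all RNAs), with a median of 1.02. Of these 4, rmsk_18S_0 had the same counts as the mitochondrial small subunit rRNA in the WT libraries. The count was 1 without WT caput replicate 1, 2 without WT caput replicate 2, 7 without WT caput replicate 3 and 15 with the replicate block. Finally, of 510 repeats of 5S rRNA 0 were called in edgeR (median -0.26).

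Mitochondrial tRNAs moved the same way as the mitochondrial rRNAs. All 20 tested had a positive log2 fold change in WT and in KO, with medians of 1.67 and 1.58. In WT 4 were called higher (20%, against 9.0% of all RNAs). With the replicate block 19 were called, whereas 1 was called without WT caput replicate 2 or without WT corpus replicate 1, and 2 without WT caput replicate 1 or WT corpus replicate 2. The histidine tRNA mt-Th was at 9.78, 4.67 and 12.2 CPM in caput and at 40.8, 19.0 and 25 CPM in corpus (log2 fold change 1.67, adjusted p = 0.0119, edgeR), a call lost without WT caput replicate 2 or WT corpus replicate 1. The phenylalanine tRNA mt-Tf was at 0.0187, 0.0610 and 0.0888 CPM in caput and at 0.233, 0.441 and 0.350 CPM in corpus (log2 fold change 2.45, adjusted p = 0.00232, edgeR). A second set of entries, the mitochondrial tRNA loci, had medians of 1.79 in WT and 1.61 in KO. Of its 20 tested entries 4 were higher in WT, 2 with library size only and 19 with the replicate block. Among other stable noncoding RNAs none was called. The log2 fold change was 0.97 for Rn7sk, which holds back the elongation factor P-TEFb, 0.79 for Rmrp, 0.77 for the Y RNA Rny1, 0.42 for the vault RNA Vaultrc5 and 0.33 for Rpph1, the RNA of RNase P. It was -0.12 for the 7SL copy Rn7s1 and -0.00 for Rny3.

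Fragments of nuclear tRNAs leaned the other way. The type tRF_other, with neither end of the tRNA, was 1.51% ± 0.211 (SD, n = 3) of counts in caput and 0.742% ± 0.261 in corpus. As for rRNA, shares of counts are not abundances of reads. The type tRF_3p, which ends at the tRNA 3′ end, was 2.16% ± 0.422 in caput and 1.32% ± 0.293 in corpus, and the type tRF_5p 0.514% ± 0.164 in caput and 0.489% ± 0.301 in corpus. For the first 2 types the corpus libraries were all below the caput libraries (exact permutation p = 0.1 each, the smallest possible), and for tRF_5p they overlapped. Of 210 entries of tRF_other 204 were negative and 29 were called lower, and the median log2 fold change was -0.71. Of 197 entries of tRF_3p 1 was lower (tRNA-Thr-CGT-3, log2 fold change -1.34, named after its values were seen), and of 199 entries of tRF_5p 0 were called in edgeR.

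The number of tRF_other calls was not stable, although the median was negative in each of the following fits. It was 1 without WT caput replicate 1, 1 without WT corpus replicate 1, 6 without WT caput replicate 2, 7 without WT corpus replicate 3, 18 without WT corpus replicate 2 and 64 without WT caput replicate 3. It was 0 in a fit of the 6 WT libraries alone, 7 with library size as the only scaling, and 93 with scaling factors taken without tRFs, tRNAs and rsRNAs. The median lay between -1.15 and -0.60 in all of these.

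Entries with the same anticodon share reads, and tRF counts were therefore also summed by anticodon and type. All 50 sums of tRF_other were negative on the log2 scale (median -0.72). In this fit 2.72% of the 3011 RNAs and sums tested were called lower and 9.47% higher, and of the 50 sums 5 were lower and 0 higher. Trp-CCA was at 244, 200 and 130 CPM in caput and at 86.9, 97.6 and 73.1 CPM in corpus (log2 fold change -1.16 ± 0.296, adjusted p = 0.0138, edgeR). Arg-ACG was at 288, 225 and 188 CPM in caput and at 95.4, 99.2 and 99.3 CPM in corpus (log2 fold change -1.25 ± 0.322, adjusted p = 0.0141, edgeR). Tyr-GTA was at 92.8, 60.7 and 43.3 CPM in caput and at 24.5, 31.4 and 20.7 CPM in corpus (log2 fold change -1.36 ± 0.379, adjusted p = 0.0231, edgeR). The caput libraries differed more among themselves than the corpus libraries did for these 3 tRNAs.

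Arg-TCG (log2 fold change -1.15) and Thr-AGT (-1.01) completed the called sums. Of the 50 sums, 32 had every corpus library below every caput library, against 9.12% of single RNAs tested. The count of called sums was 0 without WT caput replicate 1, 0 without WT corpus replicate 1, 1 without WT corpus replicate 3, 3 without WT caput replicate 2, 9 without WT caput replicate 3 and 7 with the replicate block. The tRF_3p sums had a median of -0.29 (38 of 50 negative) and the tRF_5p sums a median of -0.23 (37 of 50 negative). In KO mice 50 of 50 tRF_other sums were negative (median -0.52), as were 49 tRF_3p sums (-0.56) and 44 tRF_5p sums (-0.49). Of the sums of full-length tRNAs 26 of 32 were positive in this fit, with a median of 0.49, and none was called. This lean depended on scaling and on single libraries. Over single full-length entries the median was 0.54, 0.07 with library size only, -0.06 without WT corpus replicate 1 and 0.87 without WT corpus replicate 3. As a share of counts, full-length tRNAs made up 0.0101% in both segments, with overlapping libraries.

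**Figure D4:**
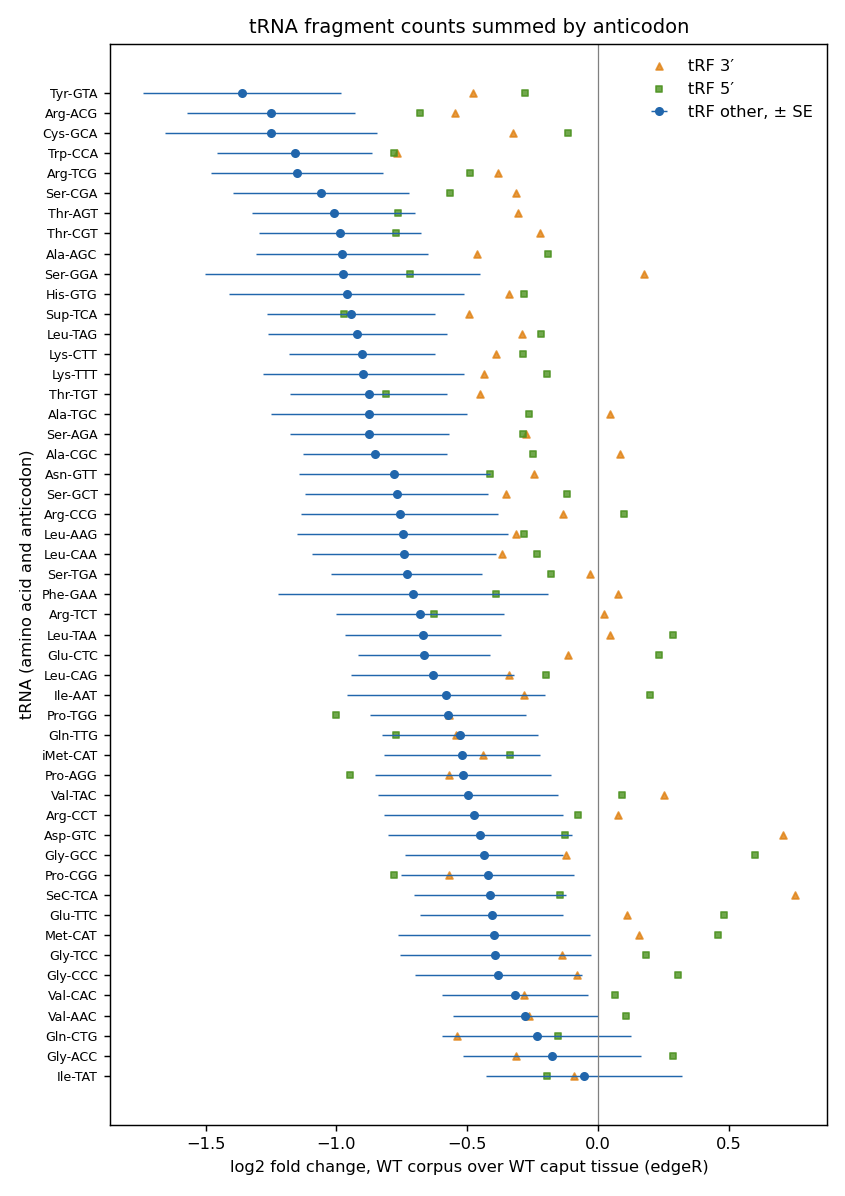
Log2 fold change (WT corpus over WT caput tissue, edgeR) of tRF counts summed by anticodon, for tRF_other (circles with SE), tRF 3′ (triangles) and tRF 5′ (squares), in the order of the tRF_other value. All 50 circles lie left of 0, from -1.36 to -0.06, whereas 12 triangles and 13 squares lie to the right.

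The anticodon plot shows that tRF_other was mostly the lowest of the 3 types for a given tRNA. Single entries named were tRNA-Arg-CCG-2 other, at 8.55, 8.03 and 3.95 CPM in caput and 2.62, 2.58 and 2.32 CPM in corpus (log2 fold change -1.45, adjusted p = 0.00769, edgeR), tRNA-Arg-ACG-1 other (-1.23) and tRNA-Trp-CCA-5 other (-1.20). The tRF_other sum of Arg-CCG was not called (log2 fold change -0.758, adjusted p = 0.237, edgeR), whereas those of Arg-ACG and Trp-CCA were. Reads counted on tRNA gene loci, outside the mature tRNA sequences, were separate. Of 266 loci 8 were higher (3.01%, below the 9.0% of all RNAs) and 0 lower, with a median of 0.67. The count was 36 with the replicate block, 13 without WT corpus replicate 3, 3 without WT caput replicate 3 and 1 without WT caput replicate 1. It was 0 without WT caput replicate 2, WT corpus replicate 1 or WT corpus replicate 2, and 0 with library size only or with scaling factors taken without tRFs, tRNAs and rsRNAs. The locus tRNA-Gly-TCC-1-5 was at 0.654, 0.683 and 0.583 CPM in caput and at 2.76, 3.62 and 1.16 CPM in corpus (log2 fold change 1.97, adjusted p = 0.0325, edgeR), a call lost in 7 of 15 alternatives, 5 of them fits without 1 library (WT caput replicate 1, 2 or 3, WT corpus replicate 1 or 2). All 1798 counts above 0 on these loci in the 6 libraries were even, as were all 123 on mitochondrial tRNA loci, against 18.1% to 52.7% in the other classes. With these counts divided by 2, an alternative chosen after seeing the data, 6 loci were higher.

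The lower snoRNAs were largely a single sequence family. Of 65 snoRNA entries called lower, 60 share at least 80% identity over at least 80% of their length with another of the family, and the best named relative is Snora17, an H/ACA box snoRNA of the class that guides pseudouridylation. The table lists 147 entries of this family, of which 73 were tested, 72 had a negative log2 fold change and 60 were lower. The median over the members of the mean level was 0.397 CPM in caput and 0.0983 CPM in corpus. Snora17 itself did not differ, at 3.45, 4.73 and 4.11 CPM in caput and 4.77, 4.94 and 2.99 CPM in corpus (log2 fold change 0.05, adjusted p = 0.953, edgeR). The members resemble each other closely enough to share reads, so the 60 calls are not independent.

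Sequences of 3 members named by their p and of Snora17 are shown. Capitals mark the longest run that the 3 members share, of 40 bases, and the closest stretch of Snora17. The run was taken from these 3 entries, so that they share it was fixed by the choice. The sequences were read from the GRCm38 genome with the GENCODE annotation, as DNA, on the strand of the gene. Gm23530 lies at chr15:47800673-47800809 (plus), Gm23329 at chr8:60807739-60807846 (minus), Gm23709 at chr4:43136499-43136628 (minus) and Snora17 at chr2:26639190-26639321 (minus).
Gm23530: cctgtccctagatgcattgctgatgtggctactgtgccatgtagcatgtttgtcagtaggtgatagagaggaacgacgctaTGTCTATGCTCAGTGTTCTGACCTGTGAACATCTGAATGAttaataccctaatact
Gm23329: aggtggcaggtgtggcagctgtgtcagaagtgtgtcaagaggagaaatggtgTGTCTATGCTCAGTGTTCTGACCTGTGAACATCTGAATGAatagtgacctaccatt
Gm23709: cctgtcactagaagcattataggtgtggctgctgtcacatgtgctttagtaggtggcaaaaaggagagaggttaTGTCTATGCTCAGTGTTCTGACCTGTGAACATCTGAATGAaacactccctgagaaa
Snora17: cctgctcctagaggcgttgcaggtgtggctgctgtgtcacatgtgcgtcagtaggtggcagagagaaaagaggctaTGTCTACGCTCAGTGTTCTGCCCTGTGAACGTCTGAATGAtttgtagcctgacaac

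Counted from 1 at the 5′ end of the run, Snora17 differed from the run by T7C, A21C and A31G, where the base of the 3 members stands first. Only these 3 of 646 snoRNA and scaRNA entries (0.464%) hold the exact run. Bases 21 to 31 of it were held by 28 of the 60 called entries like Snora17. Of the 13 tested entries like Snora17 that were not called, 8 held them, so this stretch did not mark the lower entries. Gm23530 was at 0.850, 0.756 and 0.857 CPM in caput and at 0.179, 0.302 and 0.345 CPM in corpus (log2 fold change -1.54 ± 0.300, adjusted p = 0.003, edgeR), and at -1.73 in the KO (adjusted p = 0.0321, edgeR). Gm23329 was at 0.560, 0.536 and 0.455 CPM in caput and at 0.0717, 0.163 and 0.168 CPM in corpus (log2 fold change -1.89 ± 0.372, adjusted p = 0.00329, edgeR). Gm23709 had nearly the same counts, at most 1 apart in the 6 libraries. The caput libraries lay close together and the corpus libraries had 4 to 78 counts for these 3.

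**Figure D5:**
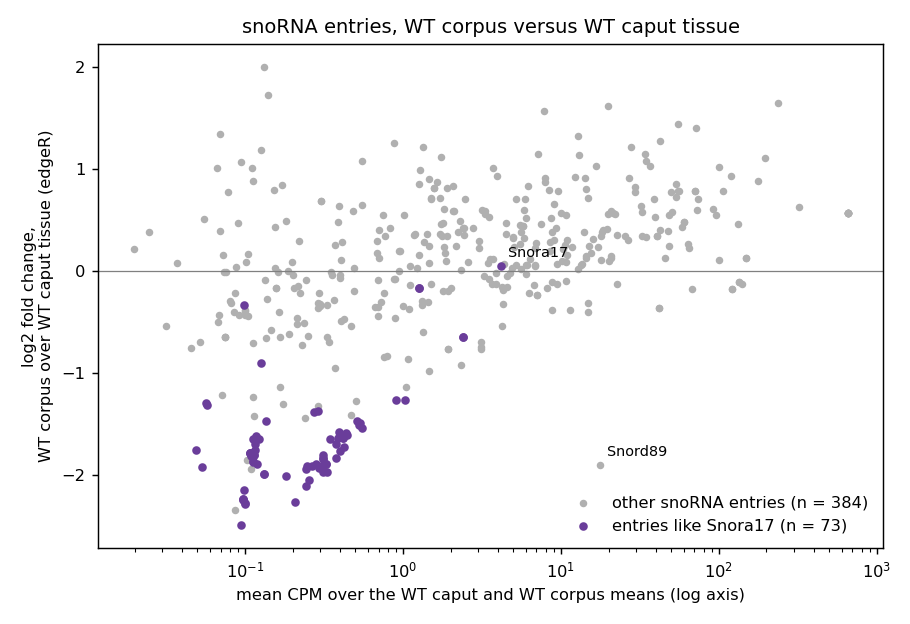
Log2 fold change (WT corpus over WT caput tissue, edgeR) of 457 tested snoRNA entries against their mean CPM on a log axis, with the 73 entries like Snora17 in purple. Most purple points lie between -1 and -2.49, and Snora17 itself, at a log2 fold change of 0.05, lies on the zero line.

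The snoRNA plot places the family at low levels, with Snord89 as the lower entry of high count. Snord89, a C/D box snoRNA named after its values were seen (chr1:39548745-39548854, minus), was at 23.5, 30.1 and 30 CPM in caput and at 11.4, 8.94 and 2.13 CPM in corpus (log2 fold change -1.90 ± 0.576, adjusted p = 0.0416, edgeR). Its call was lost in 6 of 15 alternatives, among them the fits without any 1 of the WT caput libraries and without WT corpus replicate 2 or 3. The 122 tested entries with a Snord or Snora symbol had a median of 0.35, with 0 higher and 1 lower. The count of lower snoRNAs was 22 without WT caput replicate 1, 31 without WT corpus replicate 1, 37 without WT corpus replicate 3 and 38 when the 6 WT libraries were fitted alone. Single higher entries were the snoRNA Gm24339 (log2 fold change 2.0, adjusted p = 0.0441 in edgeR, lost in 11 of 15 alternatives) and the scaRNA Gm22009, at 0.607, 0.695 and 0.572 CPM in caput and 2.17, 1.74 and 1.5 CPM in corpus (log2 fold change 1.53, adjusted p = 0.00746, edgeR). Of 599 snRNA entries 2 were higher (0.334%, below the 9.0% of all RNAs), Gm25794 (1.35, lost in 10 of 15 alternatives) and Gm22645 (2.05, lost in 10 of 14).

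The KO libraries, which share no sample with the WT libraries, gave a second look at corpus against caput tissue. The contrast in KO, with 2 corpus libraries, called 17 RNAs higher (0.487%) and 5 lower (0.143%). Of these 22 RNAs (0.631% of those tested, against 11.8% in WT), 21 were among the 412 called in WT. Of those 412, 404 (98.1%) had the same sign in the KO, against 2456 of all 3488 RNAs tested (70.4%). Of the 404, 215 also had an unadjusted p under 0.05 in edgeR. Most of the 412 came from classes whose entries are not independent. The sign was kept by 186 of 188 genic piRNA entries, 57 of 57 repeats of 28S rRNA and 66 of 66 snoRNAs. Among called miRNA entries 23 of 28 kept it, and 12 of 16 of those with a Mir symbol. The fits shared their estimate of spread, and both contrasts were scaled together. A difference between the genotypes was called for 0 RNAs (0%) by edgeR, with 134 at an unadjusted p under 0.05, and for 0 by DESeq2, with 119. KO corpus held no replicate 3 and KO caput did, so genotype and replicate make-up cannot be told apart in this difference.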

How the data were processed

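Small RNAs of 6 WT tissue libraries were measured by ARM-seq. The deposited values are whole-number read counts, which came from the authors' modified version of tRAX (cutadapt trimming, bowtie2 mapping to mm10 with mature tRNA and rRNA sequences, reads with equal best matches counted on each entry), without normalization by the authors. Versions of these tools are not given in the sources used here. Ensembl names were matched to GENCODE M21 (GRCm38) for 2097 entries.

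All 17 tissue libraries, grouped by their titles, were fitted together with edgeR 4.0.16 in R 4.3.3 (filterByExpr with a minimum count of 10 and a minimum total of 15, TMM, quasi-likelihood test, Benjamini-Hochberg adjustment over 3488 RNAs). CPM were scaled by TMM. Errors of fold changes are SE, those of shares SD, and the biological coefficient of variation was 0.412. The paper calls the tissue libraries biological replicates but does not state separate animals for them, so p-values measure the spread between these libraries. Shares were tested with exact permutation tests (SciPy 1.17.1). Sequence families were built with BLAST 2.17.0. The model was tested on simulated data.

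Members and gene lists were chosen with earlier results of these data known. RNAs were named by the smallest p per class and direction among called RNAs whose libraries did not overlap, plus fixed miRNA lists and stable noncoding RNAs. The pairing by replicate number comes from the titles. Deviations from the group means of same-numbered WT caput and corpus libraries correlated at 0.312, 0.383 and 0.555. KO pairs gave 0.0626 and 0.0326. Same-numbered WT libraries thus shared part of their deviation, and the main test and the share tests did not use the numbers. Each WT caput library also correlated best with the KO caput library of its number (0.987, 0.985 and 0.994). What the numbers mark was not tested. The fit with the replicate number as a block is an alternative, beside other scalings, DESeq2 1.42.0, no filter, WT libraries alone, sums by anticodon, other denominators and leaving out each library.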

Additional observations from a re-analysis of the deposited data

How the results depend on the processing

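Against 314 higher and 98 lower RNAs, TMM without tRFs, tRNAs and rsRNAs gave 238 lower, DESeq2 164 lower, the 6 WT libraries alone 184 and 40, and the replicate block 550 higher. Leaving out a library gave 214 to 318 higher and 26 to 141 lower. Of miRNA hairpins (25 higher, 3 lower), 13 were higher when fitted alone, 14 with library size only, 9 in the WT libraries alone (1 lower) and 73 with the block. KO calls (17 higher, 5 lower) were 3 and 1 with library size only and 32 and 18 with the block, and DESeq2 gave 11 lower. The 2 KO pairs correlated at 0.0626 and 0.0326 and were too few to show whether the KO numbers pair the libraries. Anticodon sums lower, over all fragment types (5), were 2 with library size only, 8 with the block and 0 to 9 without a library, and sums higher 0 to 1. The cause of these changes was not tested. The ratios of the 8 shares whose corpus and caput libraries did not overlap kept their direction with the most counted entry per type. They also did without rRNA in the denominator, for the classes that remained. Leaving out a library could not turn them, because the libraries did not overlap.

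Signs turned only for RNAs that were not called. Leaving out a library gave -0.196 to 0.493 for Mir10a, -0.477 to 0.0948 for Mir10b, -0.603 to 0.368 for Rn7s1, -0.604 to 0.367 for Rn7s2, -0.77 to 0.282 for Rn7s6, -0.265 to 0.415 for Rny3 and -0.0541 to 0.801 for Rpph1. Without WT corpus replicate 2, Rn7s1 and Rn7s2 were at 0.138, Rn7s6 at 0.0979 and Rny3 at 0.095, and without WT corpus replicate 1 Rny3 was at 0.104. With library size only, Mir10a was at -0.257, Rpph1 at -0.14 and Vaultrc5 at -0.00697. With TMM without tRFs, tRNAs and rsRNAs, Mir10a was at -0.226 and Rpph1 at -0.0398. With the most counted entry per tRNA and rRNA type, Mir10a was at -0.175 and Rpph1 at -0.0354. Mir10a was at -0.281 with hairpins alone, and Rny3 at 0.0263 in the WT libraries alone and 0.0664 with the block. Of 1194 values of 79 named RNAs, 945 kept direction and side of the threshold, 218 lost a call, 9 gained one and 22 turned. The few counts of the miR-196 hairpins and of the Snora17 family in single libraries limit their precision.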
